A study of Rattus norvegicus with 8 samples.

Results

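The 32 interferon-induced genes described here were taken from rat liver arrays by gene name: every spot that was not a control spot and whose gene name in the scanner files equalled one of the 32 symbols. All 32 were found, with 43 of the 45598 probes, among 36174 genes or names in all. Of the 32 genes, 5 are signal transducers and transcription factors, 21 are targets of type I interferon with the cytosolic RNA sensors among them, 5 are GTPases induced mainly by interferon-gamma, and 1 is Ubd. Liver RNA of male Wistar rats was labelled with Cy3 and hybridised to 8 arrays, 4 per group, which the labels number as separate livers. Controls had maltodextrin at 3.0 g/kg body weight by gavage. The other rats had structured lipids that contain butyrate (STL) at 1.65 g/kg body weight per day, with the same energy content. In both groups hepatocarcinogenesis by the resistant hepatocyte model was begun 2 weeks into the treatment, and livers were taken at week 8 of it. The age of the rats is not given, and the controls are livers under carcinogenesis, since no untreated liver was among the samples.

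Interferons are secreted by cells that sense viral nucleic acid and by activated lymphocytes. Type I interferons act through a receptor present on nearly all cells and a complex of STAT proteins with IRF9, which binds the interferon-stimulated response element (ISRE) in the promoters of antiviral genes. Interferon-gamma, made by T and NK cells, acts through another receptor and STAT dimers that bind the gamma-activated site (GAS), and it induces IRF1 and large and small GTPases that attack vacuoles holding microbes. In liver, hepatocytes, Kupffer cells and endothelial cells all respond to interferons.

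The values below are log2 of the processed signal of a spot relative to the 75th percentile of its array, so 0 is the signal at that percentile. A level may be compared between samples for 1 probe, but not between probes. The arrays of control 1 and control 2 differed over repeated probes by 1.05 times the noise among repeat spots of the same array, against 2.15 to 6.87 times in the other 27 pairs. They were averaged and counted as 1 sample, which left 3 control samples and 4 STL samples. The lowest of the other pairs was control 2 with STL 6. The 75th percentile lay between 304 and 605 signal units, and the share of probes well above background ranged from 54.2% to 62.9%. The hepatocyte markers Alb, Apoa1, Ttr, Tat and Cps1 were well above background on all 8 arrays. The small number of arrays sets the precision.

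Most of the interferon-induced genes had a lower mean in the STL livers, and none passed the test across all genes. A gene was tested where at least 4 of the 8 arrays gave it a signal well above background, which 31 of the 32 genes passed, 30 of them on all 8 arrays. Of these, 23 were lower in STL and 8 higher, and the median log2 difference was -0.31. Over all 21883 genes tested, 42% were lower and the median was 0.06. With a filter on all 8 arrays, 22 of 30 were lower, against 41.5% of 19137 genes. None of the 31 had an adjusted p under 0.05 by limma with Benjamini-Hochberg adjustment, in a comparison where 1 gene of all, or 0.00457%, did. At an unadjusted limma p under 0.05, 7 genes were lower, which is 22.6% of the 31 against 7.37% of all genes, and 1 was higher, where 11.5% of all genes were. In either direction 18.9% of all genes had such a p. In 5 of the 31 genes all 4 STL samples lay below all 3 control samples, or 16.1% against 5.62% of all genes. In 1 gene they lay above, or 3.2% against 11.2%. The members were chosen with earlier results of these data known, so these shares are a description and were not tested. In bulk liver RNA, fewer cells of a type and less RNA per cell cannot be told apart.

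**Figure D1:**
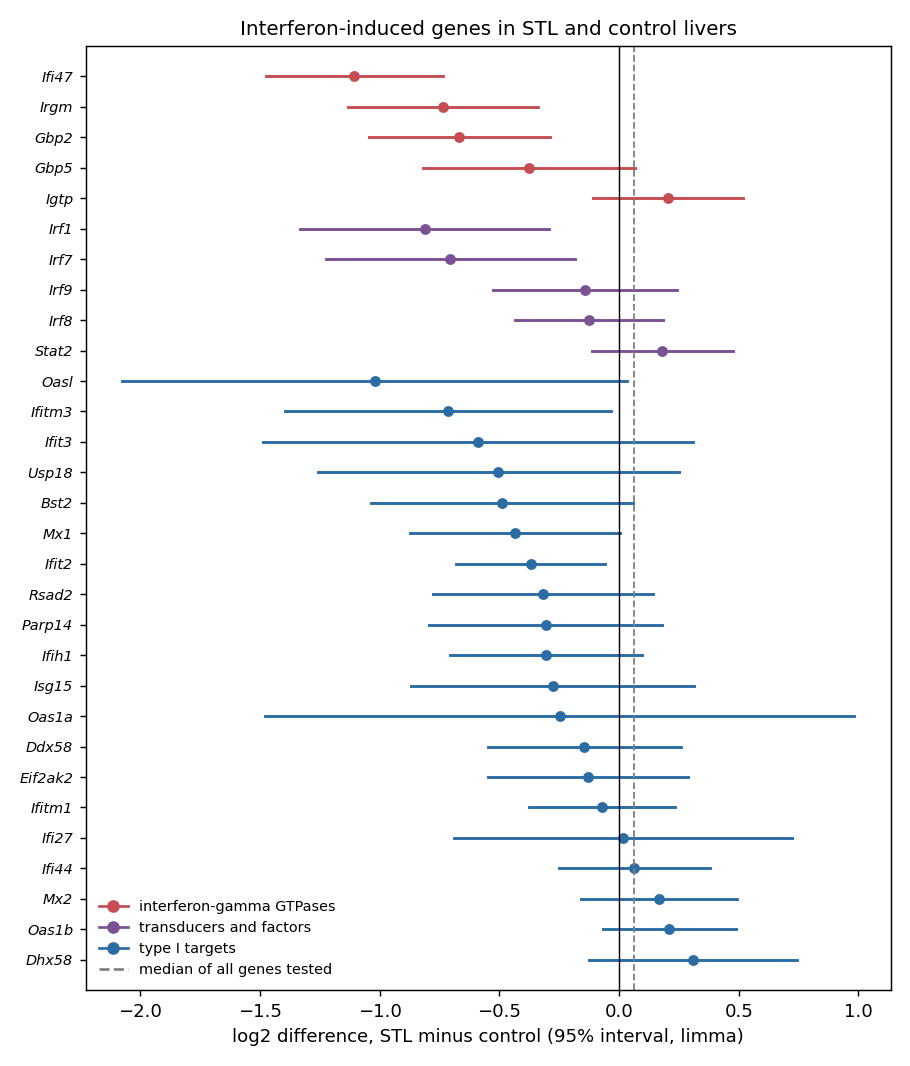
Log2 difference, STL minus control, of the 30 tested genes other than Ubd (points) with 95% intervals from limma (bars), 3 control and 4 STL samples. Of the GTPases, Ifi47, Irgm and Gbp2 have intervals wholly below 0, as do Irf1, Irf7, Ifitm3 and Ifit2, and the dashed line marks the median of all genes tested, 0.06.

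The interferon-gamma GTPases were the group with the lowest median. Of the 5, Ifi47, Irgm and Gbp2 were lower in every STL liver than in any control, or 60% against 5.62% of all genes. The 5 were listed with earlier results of these data known, so these shares are a description and were not tested. Gbp5 was lower on average with overlap, and Igtp was higher on average with overlap. The median log2 difference of the 5 was -0.67. The small GTPases of the immunity-related (IRG) family, Ifi47, Irgm and Igtp, act on the membranes of vacuoles that hold microbes, and Gbp2 and Gbp5 are large guanylate-binding proteins that follow them there. The probes of Ifi47 and Irgm lie near each other on chromosome 10 (rn4 build, per the file headers), with that of Ifi47 from 34204236 to 34204295 on the plus strand and that of Irgm from 34133266 to 34133325 on the minus strand. Those of Gbp2 and Gbp5 lie near each other on chromosome 2, from 240541001 to 240541060 and from 240447691 to 240447750. The probes that gave the values of Ifi47 and Irgm, the GTPases with the smallest p, are shown.
Ifi47: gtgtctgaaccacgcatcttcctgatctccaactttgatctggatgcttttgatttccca
Irgm: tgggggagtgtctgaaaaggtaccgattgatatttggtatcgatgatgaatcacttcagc

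Ifi47, an IRG protein, had log2 signals of -1.04 in the averaged control 1 and 2, -0.92 in control 3 and -0.57 in control 4. In STL 5, 6, 7 and 8 it was at -1.83, -1.84, -2.11 and -2.03. The groups did not overlap, and the STL livers lay within a narrow range. The difference was -1.11 (SE 0.16, 95% interval -1.47 to -0.74), so the control signal was 2.15 times that of STL. Ifi47 was 18th of all genes in order of p (limma adjusted p = 0.111) and did not pass. Its adjusted p was 0.0496 when control 1 and 2 were counted as separate samples and 0.0305 with control 1 and 2 both left out, and lay between 0.0725 and 0.264 in the other 18 alternatives. The other Ifi47 probe was well above background on 0 of 8 arrays, and with the mean of both probes the difference was -0.56.

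Irgm, an IRG protein that regulates the others and autophagy, was at 0.23, 0.37 and -0.05 in the averaged control 1 and 2, control 3 and control 4. In STL 5, 6, 7 and 8 it was at -0.80, -0.70, -0.21 and -0.51. The groups did not overlap, with STL 7 the nearest to the controls. The difference was -0.74 (SE 0.17, limma adjusted p = 0.172), lower in 4 of 4 STL samples.

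Gbp2, a guanylate-binding protein, was at 1.76, 1.72 and 1.76 in the same controls, an SD of 0.02. In STL 5, 6, 7 and 8 it was at 1.52, 1.03, 0.98 and 0.80. All STL livers were below the controls, STL 5 by the least. The difference was -0.67 (SE 0.17, limma adjusted p = 0.173), lower in 4 of 4 STL samples.

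Gbp5, which promotes inflammasome assembly, was at 0.32, 0.76 and 0.68 in the controls. It was at 0.01, 0.36, 0.59 and -0.11 in STL 5, 6, 7 and 8. The groups overlapped, since STL 6 and 7 lay above the averaged control 1 and 2. The difference was -0.38 (95% interval -0.82 to 0.07, limma adjusted p = 0.316).

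Igtp, another IRG protein, was at 7.31, 7.28 and 7.06 in the controls and at 7.40, 7.28, 7.66 and 7.35 in the STL livers. The difference was 0.21 (95% interval -0.11 to 0.52, limma adjusted p = 0.423), the reverse in sign of those of the other 4 GTPases, and the groups overlapped. The other Igtp probe differed by 0.004, so both probes of this gene lacked the lower STL signal seen for Ifi47 and Irgm.

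**Figure D2:**
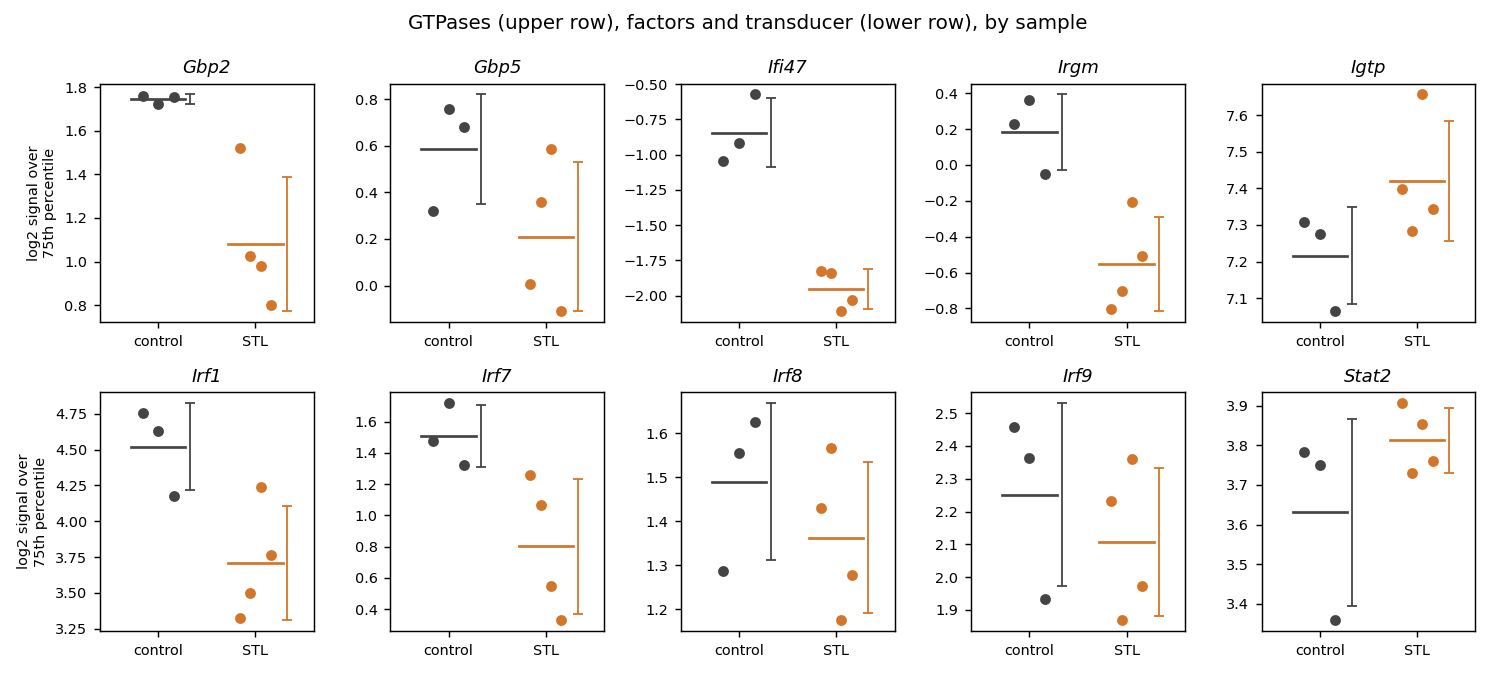
Log2 signal relative to the 75th percentile of the array (y axis, its own range per gene) in 3 control and 4 STL samples (points), with the mean (line) and SD (bar) of each group. The groups are apart for Ifi47, Irgm, Gbp2 and Irf7 and overlap for the other 6 genes.

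Promoter windows of RefSeq (GRCr8 assembly), from 250 bases before to 50 after the start of a gene, were on hand for 24 of the 32 genes. The ISRE was searched as GAAA, any 2 bases and GAAA, and the GAS as TTC, any 3 bases and GAA, both on both strands. In Bst2 an ISRE and a GAS match overlapped. An ISRE match was present in 16 of the 24 windows, or 66.7%, against 3.92% of all 33469 windows of that length, and a GAS match in 11, or 45.8%, against 8.87%. Among the type I targets 11 of 13 windows held an ISRE match, and among the GTPases 4 of 5. A match describes letters and is not a binding site. The stretches around the ISRE matches of the GTPases and of the type I targets with a match among the 6 described in full are shown with the match in capitals, to set the promoters of both groups beside each other, each 5′ to 3′ along the gene. They lie at chr2:234005671-234005726 (plus strand) for Gbp2, chr2:233910918-233910977 (plus) for Gbp5, chr10:42874919-42874978 (plus) for Igtp, chr10:33742579-33742637 (minus) for Irgm, chr1:205541768-205541827 (minus) for Ifitm3, chr3:67683993-67684052 (minus) for Ifih1 and chr16:18255064-18255123 (minus) for Bst2. In Bst2 the capitals hold a pair of overlapping matches.
Gbp2: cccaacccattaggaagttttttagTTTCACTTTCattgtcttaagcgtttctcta
Gbp5: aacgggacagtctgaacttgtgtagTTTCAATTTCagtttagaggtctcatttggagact
Igtp: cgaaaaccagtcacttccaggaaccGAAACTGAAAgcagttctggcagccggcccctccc
Irgm: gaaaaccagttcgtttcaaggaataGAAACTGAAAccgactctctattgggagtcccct
Ifitm3: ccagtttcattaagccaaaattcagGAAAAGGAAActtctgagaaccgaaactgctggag
Ifih1: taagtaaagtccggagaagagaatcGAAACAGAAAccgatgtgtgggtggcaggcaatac
Bst2: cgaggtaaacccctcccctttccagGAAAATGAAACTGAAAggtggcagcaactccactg

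Igtp and Irgm carried the same ISRE letters, at -103 and -34 from the start, and each held a GAS match just before it, while their signals differed between the groups by 0.21 and -0.74. The window of Ifi47 held no ISRE match but 2 GAS matches, at -212 and -96, and that of Irf1 held 1 GAS match, at -142. The nearer match of Ifi47 (chr10:33798623-33798681, plus strand, GRCr8) and that of Irf1 (chr10:38417768-38417826, plus strand) are shown with the GAS letters in capitals, since these genes had the lowest differences among the GTPases and the factors.
Ifi47: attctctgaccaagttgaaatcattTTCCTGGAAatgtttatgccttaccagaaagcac
Irf1: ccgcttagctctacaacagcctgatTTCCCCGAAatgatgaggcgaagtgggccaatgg

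Among the transducers and factors Irf1 and Irf7 were lower in STL, with unadjusted limma p of 0.00661 and 0.0135. Irf1, Irf8, Irf9 and Stat2 overlapped between the groups. The median log2 difference of the 5 was -0.14. Irf1, the factor that interferon-gamma induces and that drives many of its secondary targets, was at 4.75 in the averaged control 1 and 2, 4.63 in control 3 and 4.18 in control 4. In STL 5, 6, 7 and 8 it was at 3.33, 3.50, 4.24 and 3.77. STL 7 lay above control 4, and the other 3 STL livers lay below every control. The difference was -0.81 (SE 0.23, limma adjusted p = 0.178).

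Irf7, the factor that amplifies type I interferon production, was at 1.48, 1.72 and 1.32 in the controls and at 1.26, 1.07, 0.55 and 0.33 in STL 5, 6, 7 and 8. The groups did not overlap, but STL 5 lay close to control 4. The difference was -0.71 (SE 0.23, limma adjusted p = 0.193), lower in 4 of 4 STL samples.

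Irf8, a factor of macrophage and dendritic cell development, was at 1.29, 1.56 and 1.63 in the controls and at 1.43, 1.57, 1.18 and 1.28 in the STL livers. Irf9, the DNA-binding partner of STAT proteins in the type I response, was at 2.46, 2.36 and 1.93 and at 2.23, 1.87, 2.36 and 1.97. The differences were -0.13 and -0.14 (limma adjusted p = 0.621 and 0.656), and control samples lay on both sides of the STL means. The dimmer probes of these genes differed by -0.39 for Irf8 and by -0.67 for Irf9.

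Stat2, which pairs with IRF9, was at 3.78, 3.75 and 3.36 in the controls and at 3.91, 3.73, 3.85 and 3.76 in the STL livers. The difference was 0.18 (95% interval -0.11 to 0.47, limma adjusted p = 0.452), and only control 4 lay apart from the STL range.

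The type I interferon targets were lower in 15 of 20 tested genes, by a median of -0.29, with wide overlap of the groups. The 15 include Oasl, which passed the filter mainly through the control arrays, so the filter itself favours a lower STL signal for it. With a filter on all 8 arrays, which left out Oasl, 14 were lower and the median was -0.28. Of the 20, 2 had an unadjusted limma p under 0.05, Ifit2 and Ifitm3, both lower, and none passed after adjustment. These are 10% of the 20, near the 7.37% of all genes that were lower at this p. Ifit2, which binds viral RNA at the ribosome, was at -0.56, -0.18 and -0.48 in the averaged control 1 and 2, control 3 and control 4. In STL 5, 6, 7 and 8 it was at -0.85, -0.63, -0.80 and -0.82. All STL livers were below all controls, by a small margin between STL 6 and the averaged control. The difference was -0.37 (SE 0.14, limma adjusted p = 0.217). Ifit2 was the only type I target with all STL samples lower, or 5% of the 20, near the 5.62% of all genes.

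Ifitm3, a membrane protein that blocks viral entry, was at 1.77, 2.05 and 1.91 in the controls and at 0.47, 1.93, 1.42 and 0.95 in STL 5, 6, 7 and 8. STL 6 lay among the controls and the other 3 STL livers lay below them. The difference was -0.72 (SE 0.30, limma adjusted p = 0.249), while the other Ifitm3 probe had a difference of 0.25, the reverse in sign.

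Mx1, a dynamin-like antiviral GTPase, was at 1.43, 1.55 and 1.14 in the controls and at 1.24, 1.00, 1.05 and 0.46 in the STL livers. The difference was -0.44 (95% interval -0.87 to 0.002, limma adjusted p = 0.266). STL 5 lay above control 4, and STL 8 was the lowest. Its paralogue Mx2, whose probe lies on the same chromosome 11, differed by 0.17 (limma adjusted p = 0.538).

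Bst2, tetherin, which holds budding virus at the cell surface, was at 4.40, 5.49 and 4.69 in the controls and at 4.18, 4.54, 4.27 and 4.49 in the STL livers. The difference was -0.49 (limma adjusted p = 0.301), and control 3 was the high sample, without which it was -0.17. Ifih1, the RNA sensor MDA5, was at -1.80, -1.81 and -2.28 and at -2.20, -2.17, -2.44 and -2.26. Its difference was -0.31 (limma adjusted p = 0.361), and control 4 lay within the STL range.

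Oasl, a protein of the oligoadenylate synthetase family, was well above background on 4 of 4 control arrays and on 1 of 4 STL arrays. Its log2 signal was -4.03, -4.46 and -3.57 in the controls and -4.77, -4.35, -6.22 and -4.81 in the STL livers, a difference of -1.02 (95% interval -2.07 to 0.03, limma adjusted p = 0.276). STL 6 overlapped the controls. With normexp background correction the difference was 0.09, the reverse in sign.

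**Figure D3:**
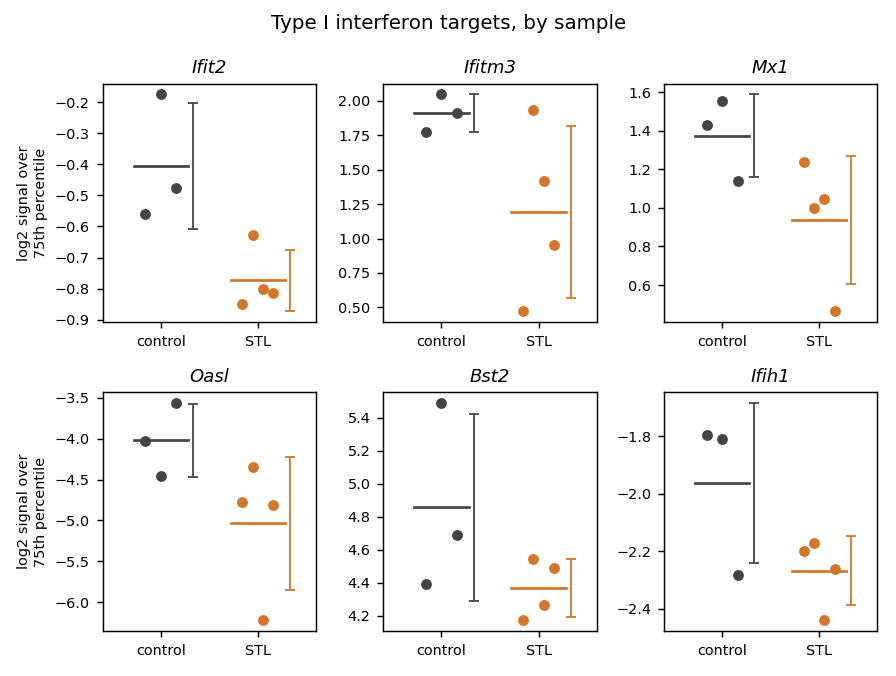
Log2 signal relative to the 75th percentile of the array (y axis, its own range per gene) for the 6 type I targets with the smallest p, in 3 control and 4 STL samples (points), with the mean (line) and SD (bar) of each group. Only for Ifit2 do the groups not overlap.

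The other type I targets differed by less relative to their spread. The synthetase gene Oas1a differed by -0.25, with STL samples between -1.72 and 0.65, and Oas1b on the same chromosome by 0.21 (limma adjusted p = 0.822 and 0.366). The ubiquitin-like modifier Isg15 differed by -0.28, and its protease Usp18 by -0.50, with STL 8 at -1.77 against -0.41 in the lowest control. Without STL 8 the difference of Usp18 was -0.17, and that of Isg15 was -0.56 without control 4 and -0.05 without control 1 and 2. Ifit3, a partner of the other IFIT proteins, differed by -0.59. Differences were -0.32 for Rsad2, a radical SAM enzyme, -0.31 for the ADP-ribosyltransferase Parp14 and -0.13 for Eif2ak2, the kinase that halts translation. The other Rsad2 probe was well above background on 0 of 8 arrays, and with the mean of both probes the difference was -0.69. Differences were -0.15 for the RNA sensor Ddx58 and 0.31 for its regulator Dhx58. Ifitm1, an entry inhibitor like Ifitm3, differed by -0.07 and Ifi44 by 0.06. Ifi27 differed by 0.02, a sign that flipped under median scaling, quantile normalization and normexp. In Oas1b all STL samples lay above all controls only with control 1 and 2 averaged, with STL 5 at 5.547 against 5.544 in that average. Control 2 alone was at 5.614. In the other genes of this paragraph the groups overlapped. Adjusted p by limma lay between 0.366 and 0.983 for these genes. Ifit1 was well above background on 0 of 8 arrays and was not tested.

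Set side by side, the GTPases had a lower median than the type I targets, -0.67 against -0.29, a gap of -0.38. The gap is that of the 5 listed GTPases. Of other tested GTPases of these families, not counted in it, Gbp1 differed by 0.47, Irgm2 by 0.34 and Gbp4 by -0.36. No test was run on this gap, because the genes share samples and are not replicates. The mean of the 5 GTPases after centring each gene was 0.24, 0.37 and 0.31 in the averaged control 1 and 2, control 3 and control 4. It was -0.21, -0.25, -0.09 and -0.37 in STL 5, 6, 7 and 8, so the groups did not overlap. Ifi47, Irgm and Gbp2, which did not overlap on their own, are 3 of these 5 genes. For the type I targets the mean after centring was 0.18, 0.33 and -0.07 in the controls. In the STL livers it was 0.10, -0.07, -0.17 and -0.30, with overlap through control 4 and STL 5. The GTPase mean minus the type I mean was 0.06, 0.04 and 0.37 in the controls and -0.31, -0.17, 0.08 and -0.07 in the STL livers. STL 7 lay above the averaged control 1 and 2 and control 3, so the gap did not separate the groups. Control 4 had a GTPase mean like the other controls and a type I mean like the STL livers. The summed signal of the GTPases, in multiples of the 75th percentile, was 141 to 165 in the controls and 160 to 206 in STL, since the bright Igtp probe, higher in STL, makes up most of it.

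**Figure D4:**
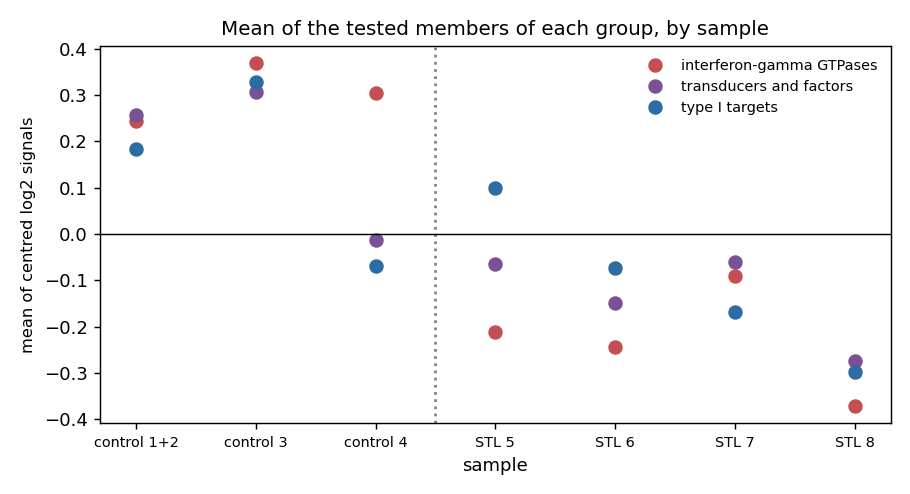
Mean of centred log2 signals (y axis) of the tested GTPases (5 genes), transducers and factors (5) and type I targets (20) in each sample. The GTPase means of the 3 controls, 0.24 to 0.37, lie above those of the 4 STL livers, -0.37 to -0.09, and control 4 lies low in the other 2 groups.

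Markers of cells that respond to or make interferon were set beside these values. Of the 5 hepatocyte markers 4 were higher in STL, by a median of 0.41. Their summed signal was 1155 to 1432 times the 75th percentile in the controls and 1466 to 2224 in STL, with no overlap. The mean of their centred log2 signals did overlap, at -0.57 to 0.14 in the controls and -0.01 to 0.50 in STL. The leukocyte gene Ptprc differed by -0.01. Of 11 macrophage and Kupffer cell markers, 8 were lower and 3 higher, by a median of -0.12, and their summed signal was 133 to 162 times the 75th percentile in the controls and 118 to 166 in STL. Of 12 T and NK cell markers 9 were tested, and 7 were higher and 2 lower, by a median of 0.19, with a summed signal of 14.3 to 18.8 and 14.6 to 20.7. Cd3e and Cd2 were well above background on 0 of 8 arrays. Of 4 plasmacytoid dendritic cell markers 3 were tested and all 3 were lower, with a summed signal of 24.4 to 48.8 in the controls and 21.2 to 26.6 in STL. Bst2, 1 of these 3, is also a type I target and made up most of this sum, so the sum is not separate from that member. Siglech was not on the array. Of 6 B and plasma cell markers 2 were tested, both higher, and of 6 endothelial markers 2 were lower and 4 higher. Of 3 tested neutrophil markers 2 were lower, with a summed signal of 0.873 to 2.16 and 0.524 to 1.31. Of 7 stellate cell markers 5 were lower, with a summed signal of 46.5 to 92.8 and 30.2 to 43.8. The mean of their centred log2 signals overlapped, at -0.031 to 0.593 in the controls and -0.418 to 0.001 in STL. The cholangiocyte list was lower in 4 of 5 markers, with a summed signal of 3.41 to 8.27 and 2.06 to 4.18, the highest in control 4. The part of these cell types in the lower GTPase and factor signals was not tested.

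Ubd did not follow the other genes. It encodes FAT10, a ubiquitin-like modifier that interferon-gamma and TNF induce together and that sends proteins to the proteasome. Its processed signal was 105 in control 1, 98.2 in control 2 and 141 in control 4, but 14180 in control 3. In STL 5, 6, 7 and 8 it was 3378, 11340, 7274 and 9156. So 3 of 4 control arrays were low, and control 3 was the highest of all 8. On the log2 scale the averaged control 1 and 2 was at -2.32, control 4 at -2.10 and control 3 at 4.76, and the STL livers were at 2.89, 4.54, 4.58 and 4.31. No sample lay in the gap of 31.9-fold between control 4 and STL 5.

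The difference of the group means of Ubd was 3.97 (SE 1.52, 95% interval 0.50 to 7.43, limma adjusted p = 0.228) and did not pass, with an SD of 4.02 in the controls. Without control 3 it was 6.29 and passed (limma adjusted p = 0.0176), with the spread in the controls taken from 2 samples. The probe was well above background on all 8 arrays, and its 2 spots differed by at most 0.35 on the log2 scale within an array. It lies on chromosome 20 from 1476014 to 1476073 in rn4, in the part of the genome that holds class I RT1-M genes and olfactory receptor genes. Of 17 tested genes with a probe within 250 kb, 2 differed by over 2 on the log2 scale, RT1-M5 with -3.47 and RT1-M6-1 with 2.08 (limma adjusted p = 0.180 and 0.527). RT1-M5 was well above background on only 1 of 4 STL arrays, and RT1-M6-1 on only 1 of 4 control arrays. Neither followed Ubd across samples: RT1-M5 was at -1.83 in control 3 and -2.15 in the averaged control 1 and 2, and RT1-M6-1 was high in STL 8 alone, at 2.59. This window was chosen after the values of Ubd were seen, and the promoter window of Ubd held neither an ISRE nor a GAS match.

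**Figure D5:**
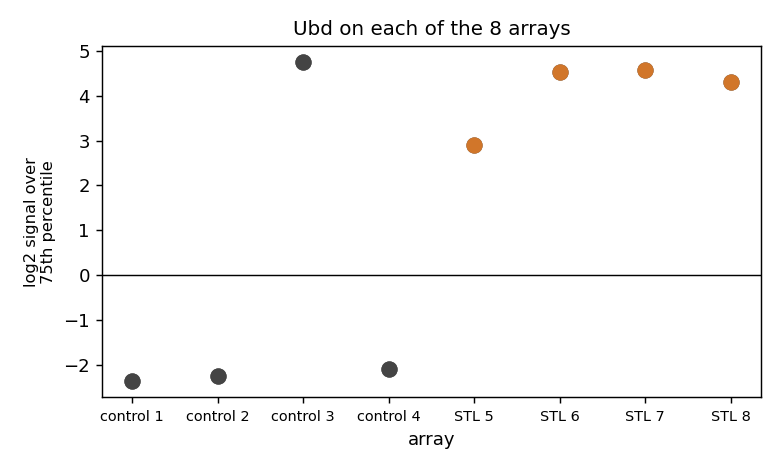
Log2 signal of Ubd relative to the 75th percentile of the array (y axis) on each of the 8 arrays, with controls in grey and STL in orange. Control 1, 2 and 4 lie between -2.38 and -2.10, and control 3 lies at 4.76, above the 4 STL arrays.

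Of 65 further genes of the pathway on the list, 58 were on the array and 52 were tested, of which 30 were lower and 22 higher, with a median of -0.09 and 0 past the threshold by limma. The share lower was 57.7%, against 42% of all genes. At an unadjusted p under 0.05, 8 were lower and 3 higher, where 7.37% of all genes were lower and 11.5% higher. All STL samples lay below all controls in 11.5% of the 52, against 5.62% of all genes. They lay above in 3.8%, against 11.2%. Among 5 interferon genes on the array Ifna1 and Ifna4 were tested, with differences of 0.40 and 0.22 (limma adjusted p = 0.412 and 0.517), while Ifng, Ifnb1 and Ifna2 were well above background on 0 of 8 arrays. Of the 6 receptor genes 5 were lower, by a median of -0.22 over the 6. Ifngr2, a chain of the interferon-gamma receptor, was lower in every STL liver than in any control, at 2.35 ± 0.13 (SD, n = 4), where controls were at 2.92 ± 0.23 (SD, n = 3). The difference was -0.57 by limma (adjusted p = 0.171). The other chain, Ifngr1, differed by -0.05. Ifnar1, a chain of the type I interferon receptor, was also lower in every STL liver than in any control. It differed by -0.34 (limma adjusted p = 0.249). Ifnlr1 had the largest receptor difference, -0.95, with overlap of the groups (limma adjusted p = 0.210). Ifnar2 differed by -0.11 and Il10rb by 0.08.

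Of the other targets, Cxcl10, a chemokine that draws activated T cells, was at -0.58 ± 0.30 (SD, n = 4) in STL and 0.51 ± 0.30 (SD, n = 3) in controls. All STL samples were below all controls, with a difference of -1.09 by limma (adjusted p = 0.161). Tap1, the peptide transporter for class I molecules, differed by -1.08, Lgals3bp, which binds galectin-3, by -0.87 and Cmpk2, a nucleotide kinase beside Rsad2, by -0.55 (limma adjusted p = 0.179, 0.178 and 0.184). For Tap1 and Cmpk2 all STL samples were below all controls. Cd274, the ligand of the T cell checkpoint receptor PD-1, went the other way, with a difference of 0.81 and all STL samples above all controls (limma adjusted p = 0.165). None of these genes or Ifngr2, together the 6 with the smallest p in the list, passed the threshold. The list also held 3 tested GTPases of the same families as the members, named here after their values were seen: Gbp1 differed by 0.47, Irgm2 by 0.34 and Gbp4 by -0.36 (limma adjusted p = 0.210, 0.300 and 0.469). In these 3 the groups overlapped, so the lower signals of Ifi47, Irgm and Gbp2 were not seen across all measured GTPases of these families.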

How the data were processed

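Total RNA of 8 rat livers was hybridised to 1-colour Agilent arrays on 1 slide, per the labels' protocols and the file headers. The deposited scanner files give spot intensity made with Agilent Feature Extraction, version 11.5.1.1 per the file headers and 10.7 per the submitters' processing notes. The authors' series table of scaled intensity was used as an alternative. In it, 6 of 8 columns held another array of the same group than labelled and 0 one of the other group. That alternative averaged the columns labelled control 1 and 2, so its averaged pair need not be the arrays of control 1 and 2. Its difference for Ubd was 5.17, against 3.97 in the main fit.

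Outlier spots were left out and no spot was saturated. Log2 processed signals of a probe's spots were averaged, minus each array's 75th percentile. The brightest probe stood for a gene. STL and control samples were set against each other by a two-sided limma test (version 3.58.1, R 4.3.3, eBayes with trend), with Benjamini-Hochberg adjustment over 21883 genes and a threshold of 0.05, after tests on simulated data. Python 3.11.15, pandas 2.3.3 and matplotlib 3.10.9 were also used. Of 43 probes, 37 matched a RefSeq accession, all with the same symbol.

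The members and lists were chosen with earlier results of these data known. All members are named, the type I targets in full for the 6 with the smallest p, and of the wider list the 6 with the smallest p, with some ligands, receptor chains and GTPases besides, named with their values known. Control 1 and 2 were averaged below a noise ratio of 1.5. Alternatives covered scaling, background correction, dim-probe filters, probe and spot choice, the averaged pair, weights, slide column, trend and each sample left out.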

Additional observations from a re-analysis of the deposited data

Results flagged for a closer look

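Of 31 tested genes, 1 had an STL sample far from the other 3: Ubd in STL 5, at 2.89 against 4.31 in the nearest, a gap of 0.842 of the range of the 4 samples, past the 95% critical value of Dixon's test. Chance alone sets about 1 in 20 such groups apart. The 3 control samples were not examined in this way, although control 3 differed from the other controls in Ubd by far more.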

How the results depend on the processing

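The 20 alternatives gave medians between -0.37 and -0.13 for the type I targets, between -0.71 and -0.56 for the GTPases and between -0.48 and -0.29 for the gap, all in the direction reported. All used the same 5 GTPases, so none shows how the gap depends on the choice of GTPases. The alternative from the authors' series table averaged its control columns by label, as described above. Genes past the threshold numbered 1, but 21 with each of the 8 arrays as a sample and 205 with control 1 and 2 both left out, each with 1 of the 31 members (Ifi47), and 1 to 45 with control 3, control 4 or a single STL sample left out, with 0 to 1 members (Ubd, without control 3). The count was 45 without STL 6 and 3 without control 3.

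Of 619 differences of single genes, 595 kept sign and side of the threshold, 3 passed it and 21 changed sign. Ifi27 was -0.029 with median scaling, -0.097 with quantile normalization, -0.033 with normexp, -0.022 with 8 arrays as samples, -0.022 with slide column as a block and -0.253 with array weights. Array weights gave 0.01 for Irf8, 0.013 for Ifitm1 and -0.016 for Ifi44, the mean of probes gave -0.013 for Ifi44, and normexp gave 0.091 for Oasl. With single samples left out, the difference lay between -0.329 and 0.286 for Ifi27, -0.725 and 0.077 for Oas1a, -0.024 and 0.157 for Ifi44, -0.287 and 0.027 for Eif2ak2, and -0.147 and 0.007 for Ifitm1. The cause was not tested. Control and STL rats carry different numbers in the labels, so no replicate numbers pair them. Each slide column holds 1 control and 1 STL array, and with column as a block 1 gene and 0 members passed. Dim genes such as Oasl are limited by signal over background.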
